A study of Mus musculus with 6 samples.

Results

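The cells described here are 1949 of the 26808 barcodes of the series, chosen because they carried the highest summed levels of 7 genes: U90926, Wfdc18, Tnc, Tslp, Cald1, Klk8 and Ccn2. Barcodes with at least 500 detected genes (25154) were pooled over 6 libraries. Those with a deposited Krt13 value below 3 (15202) were kept, and cells in which at least 2 of the 4 cycling genes Top2a, Mki67, Birc5 and Ube2c were detected were dropped, which left 12990 non-cycling Krt13-low cells. The mean deposited value of the 7 genes was then taken as a score, and cells at or above its 85th percentile became the members, which the axes of the plots name as such. The working name of these cells was matrix and wound-like basal cells. They are called marker-high cells here, and the 11041 cells below the threshold are called the other cells, because the wound keratins did not all follow that name.

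The series compares organoids by the autophagic vesicle content of the cells that founded them. Live esophageal cells of C57BL6 mice were sorted by the basal integrin-b1 (positive) and the dead-cell stain DAPI (negative), and then by Cyto-ID, a dye for autophagic vesicles, into Cyto-ID Low and Cyto-ID High founders. Founders of both groups were grown in Matrigel in the same medium, with EGF, Noggin and R-Spondin and the kinase inhibitor Y27632, and organoids were collected after 15 days for droplet 3′ sequencing with unique molecular identifiers (UMIs). Each group had 3 libraries labelled F2, M3 and F6, and values per library are given in that order for the Low and then the High founders. The age of the animals is not given in the sources used here. Whether a label stands for an animal, and whether animals were pooled, is not given in the sources used here, so p-values measure the spread between these libraries.

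A stratified squamous epithelium is renewed from a basal layer that rests on a basement membrane of laminins and type IV collagen and makes the keratins Krt5 and Krt14. Cells that leave this layer switch to suprabasal keratins and later to proteins of the cornified surface. After wounding, basal keratinocytes spread and migrate, and they are known to switch on stress keratins, integrins, proteases and provisional matrix proteins such as fibronectin and tenascin-C.

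The 7 genes that chose the cells cover several of these roles. Tnc encodes tenascin-C, a matrix glycoprotein of healing tissue, and Ccn2 encodes a matricellular protein that is a well-known target of YAP and of TGF-beta signalling. Cald1 encodes caldesmon, which binds actin and tropomyosin. Klk8 is a secreted serine protease of the kallikrein family, Wfdc18 a secreted protein with a whey acidic protein domain, and Tslp an epithelial cytokine that acts on immune cells. U90926 is annotated by RefSeq as a long non-coding RNA.

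In the RefSeq annotation of GRCm38.p6, U90926 lies on chromosome 5 from 92209895 to 92215408, Tnc on chromosome 4 from 63959785 to 64047015 and Cald1 on chromosome 6 from 34598495 to 34775469. Klk8 lies on chromosome 7 from 43797532 to 43803826, Ccn2 on chromosome 10 from 24595442 to 24598683 and Wfdc18 on chromosome 11 from 83709004 to 83711360. Because these genes were chosen as 1 group, the 250 bases before each listed transcript start were searched in the 5 genes that matched the table (U90926, Wfdc18, Tnc, Cald1 and Klk8; Ccn2 and Tslp were not searched) on both strands for the AP-1 motif TGANTCA and the TEAD motif CATTCC. Over all 32851 windows of this length, 6.75% held the first motif and 12.6% the second. The windows of U90926 and of the 2 listed Cald1 starts held 1 match each, and they are printed here because they are the windows of these 5 genes with a match. Sequences are from RefSeq, 5′ to 3′ on the strand of the gene, in lower case with the match in capitals. The first base of the match lies 71, 153 and 197 bases before the start, in this order.
U90926, chr5:92215409-92215658, minus strand, TEAD motif: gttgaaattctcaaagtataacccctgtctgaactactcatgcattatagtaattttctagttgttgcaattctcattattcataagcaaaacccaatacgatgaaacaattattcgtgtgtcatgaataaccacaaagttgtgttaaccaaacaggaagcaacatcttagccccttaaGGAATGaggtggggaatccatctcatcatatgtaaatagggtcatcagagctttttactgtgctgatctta
Cald1 start 1, chr6:34598254-34598503, plus strand, TEAD motif: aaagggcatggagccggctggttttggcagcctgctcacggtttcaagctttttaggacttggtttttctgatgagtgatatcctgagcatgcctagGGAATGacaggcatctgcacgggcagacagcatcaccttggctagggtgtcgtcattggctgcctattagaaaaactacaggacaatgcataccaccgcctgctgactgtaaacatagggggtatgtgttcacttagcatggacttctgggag
Cald1 start 2, chr6:34709194-34709443, plus strand, AP-1 motif: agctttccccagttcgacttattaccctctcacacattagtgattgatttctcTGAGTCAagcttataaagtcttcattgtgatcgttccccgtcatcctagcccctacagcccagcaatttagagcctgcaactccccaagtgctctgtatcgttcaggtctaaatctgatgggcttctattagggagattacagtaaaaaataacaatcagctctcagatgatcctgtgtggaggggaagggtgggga
The windows of Wfdc18, of Klk8 and of both listed Tnc starts held neither motif. The windows of the leading genes Vim, Sparc, Cp, Plekhb1, Col4a4, Pdpn and Lrrc8c, described below, were searched as well, and the 2 listed starts of Cp held 1 match each. A match describes letters only and says nothing about binding, and the deposited data do not measure binding.

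The libraries held 153700756 UMIs in all and differed in depth. The median marker-high cell held 6860, 4840 and 2177 UMIs in the Low libraries, and 8654, 1955 and 1563 in the High libraries. The other cells of the same libraries held 7034, 4996, 2318, 9120, 1899 and 1765 at the median, so the marker-high cells were not the deeper cells of their library except in High M3. The median mitochondrial share was lower in the marker-high cells of all 6 libraries, at 1.74% to 2.51% against 2.02% to 2.95%. Of all barcodes, 85 occurred in more than 1 library, and none of these was a marker-high cell in both. Doublets were neither called nor removed, and their part in the results was not tested.

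Levels were computed per library as CPM, the usual depth-scaled unit that divides a gene's UMIs by the cell's total and multiplies by 1000000, averaged over cells. Of the 7 genes, Wfdc18 did most to place a cell above the threshold. It was detected in 85.8% of the marker-high cells and gave 38.7% of their summed score. Cald1 was detected in 73.2%, Klk8 in 52.0%, Tnc in 33.8%, Ccn2 in 27.4%, U90926 in 22.5% and Tslp in 14.5%.

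Wfdc18 averaged 1671, 846 and 3080 CPM in the marker-high cells of the Low libraries and 2024, 820 and 4763 CPM in those of the High libraries, against 84.8 to 440 CPM in the other cells. Its level was highest in the F6 libraries of both groups. U90926 averaged 256, 247 and 135 CPM in the Low libraries and 190, 249 and 1173 CPM in the High libraries. The High F6 library stood apart from the other 5 for this gene, and 39.9% of its marker-high cells had a U90926 UMI against 5.35% to 26.8% elsewhere. Cald1 ranged from 272 to 580 CPM, Klk8 from 105 to 426, Tslp from 125 to 327, Tnc from 43.9 to 179 and Ccn2 from 56.3 to 139 over the 6 libraries. These levels chose the cells, so they are a description, and all 7 genes were higher in the marker-high cells of every library.

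**Figure D1:**
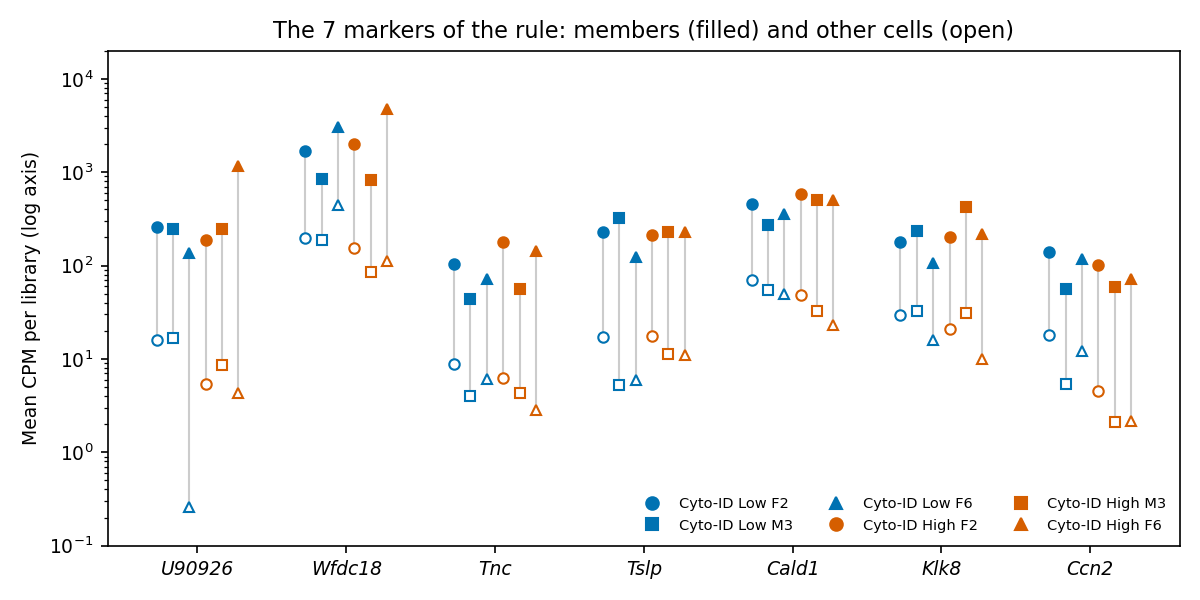
Mean CPM (log axis) of the 7 genes of the score in each library, with filled symbols for marker-high cells and open symbols for the other cells of the same library, joined by a line; symbol shape gives the replicate label and colour the Cyto-ID group. Every filled symbol lies above its open one, and U90926 in the High F6 library reaches 1173 CPM.

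The genes were only loosely tied to each other within single cells. Of the marker-high cells, 120 (6.16%) were chosen on 1 detected gene and 609 (31.2%) on 2, and Wfdc18 was the only gene detected in 110 of the former. At least 3 of the 7 genes were detected in 1220 marker-high cells (62.6%) against 2.36% of the other cells, and all 7 in 10 cells. This share was largest in the deepest libraries, at 79.5% and 77.3% in the F2 libraries of Low and High, and 59.4%, 25.1%, 33.7% and 33.3% in Low M3, Low F6, High M3 and High F6. Correlations of the deposited values over the non-cycling Krt13-low cells of a library were low, with medians over libraries from -0.02 to 0.22 for the 21 pairs of genes. The tightest pair was Tnc with Cald1, at 0.05 to 0.56 within libraries, whereas Wfdc18 and Tslp were positively correlated in 1 of 6. Cells of a library differed in depth, whose part in these correlations was not tested, and the counts are sparse.

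When each gene was left out of the score in turn, cells chosen by the other 6 still held more of it in every library for 6 of the 7 genes. Tslp was the exception and was higher in 5 of 6 libraries. The 7 genes were chosen with earlier results of these data known, so this describes the set and does not test it. Without Wfdc18, 72.8% of the marker-high cells were chosen again, and without any other single gene 80.3% to 95.2%. The threshold cut through a continuous range of scores. It lay at 0.524, with 318 marker-high cells less than 0.05 above it and 313 other cells less than 0.05 below it, and the median score was 0.737 in the marker-high cells and 0 in the other cells. Outside the cells the rule considered, 190 of 2212 cycling Krt13-low cells (8.59%) and 121 of 9952 Krt13-high cells (1.22%) also reached the threshold. Between libraries these shares ran from 2.41% (High F6) to 29.5% (Low F2) and from 0.591% (Low M3) to 2.15% (Low F2).

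The marker-high cells carried basal keratins at levels near those of the other cells. Krt5, a basal keratin, averaged 2954, 4152 and 2942 CPM in the Low libraries and 2725, 3961 and 2686 CPM in the High libraries, with a log2 ratio to the other cells of -0.16 ± 0.19 (SD over 6 libraries, 1 CPM added to both levels). Krt14 lay at -0.47 ± 0.21 and Trp63, the transcription factor of the basal state, at -0.08 ± 0.33. None of the 10 measured basal genes was at least 2-fold apart in every library, and their median log2 ratio was -0.03. By direction alone 2 were lower in 6 of 6 libraries, the keratin genes Krt14 and Krt15 (-0.38 ± 0.27), and 2 were higher, against 5.77% and 10.5% of all genes. The beta integrins Itgb1 and Itgb4, which bind the basement membrane, were the higher pair, at 0.55 ± 0.27 and 0.50 ± 0.22. A gene was counted as measured here with a mean of at least 5 CPM over both kinds of cell.

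Defining markers of other cell types were mostly at or near 0, with fibroblast genes in 1 library and smooth muscle genes as exceptions. Of 8 fibroblast genes none was measured, and the collagen gene Col3a1 was at 0 in all marker-high cells. Their summed level was 0 to 2.56 CPM in the marker-high cells of 5 libraries and 109 CPM in those of High F6, against 0.317 to 1.54 CPM in the other cells. In that library 2 marker-high cells had a fibroblast-gene UMI, and 1 of them held 21 of the 22. Of 8 immune genes Cd68 was measured, at 3.79 to 28.2 CPM in marker-high and 6.32 to 16.8 CPM in other cells, and Ptprc, Cd3e, H2-Aa and Tyrobp were at 0. The endothelial genes Cdh5, Kdr and Emcn and the melanocyte genes Dct and Mlana were also at 0. Of 8 muscle genes, Des, Myh1 and Tnnt3 were at 0 and 2 were measured: Mylpf (0 to 14.5 CPM) and Acta2, a smooth muscle actin. Acta2 was higher in the marker-high cells of 6 of 6 libraries, at 15.3 to 56.3 against 3.80 to 9.21 CPM, and the summed muscle list was 20.8 to 78.9 against 9.04 to 16.1 CPM. Tagln, another smooth muscle gene and not among those measured, was at 17.4 and 19.9 CPM in the marker-high cells of High F2 and High M3 and at 0 to 0.745 CPM in those of the other 4 libraries.

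Beyond the 7 genes, the marker-high cells carried more transcript of several matrix genes, among them Fn1, Sparc, Lgals1 and Col4a1, and of Vim. They carried less of the suprabasal genes Sprr2f, Krtdap and Psca than the other cells of the same library. Of 9050 genes measured, 22 (0.243%) were at least 2-fold higher in 6 of 6 libraries, the 7 genes of the score among them, and 23 (0.254%) were at least 2-fold lower. With 10 CPM added in place of 1, which shrinks the ratios of low genes, 9 and 4 met the criterion, among them 2 of the 11 leading higher and 1 of the 8 leading lower genes named here. Since the score chose cells by expression, this contrast is described without a test. Among cells with no Krt13 UMI, 13 genes were higher and 13 lower by the same criterion, 11 and 7 of them shared with the full set, including 3 of 11 leading higher and 4 of 8 leading lower genes named here.

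Vim, which encodes the intermediate filament vimentin, had the highest mean ratio among the leading genes outside the score. It averaged 15.1, 17.1 and 11.1 CPM in the marker-high cells of the Low libraries and 69.5, 109 and 61.9 CPM in those of the High libraries, against 0.805 to 5.16 CPM in the other cells. The lowest marker-high level was above the highest level of the other cells, and the mean log2 ratio was 3.51 ± 1.11, or 1.92 with 10 CPM added. A Vim UMI was found in 2.88% to 16.4% of marker-high cells and in 0.157% to 1.17% of the other cells, at the similar depths given above.

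Fn1, the gene of fibronectin, averaged 18.6, 2.67 and 9.29 CPM in the Low libraries and 70.6, 31.5 and 42.8 CPM in the High libraries, against 0.167 to 2.27 CPM in the other cells (log2 ratio 3.36 ± 1.50). Sparc, which encodes a matricellular protein that binds collagen, averaged 29.7, 28.7 and 11.5 CPM and 44.3, 37.2 and 76.5 CPM in the same order, against 2.22 to 5.79 CPM (2.80 ± 1.02). Lgals1, the gene of the lectin galectin-1, averaged 67.0, 52.7 and 53.0 CPM and 140.1, 86.7 and 166 CPM, against 7.99 to 18.9 CPM (2.77 ± 0.79). For Fn1, Sparc and Lgals1 too, every library of marker-high cells lay above every library of other cells. For Fn1 the margin was narrow, at 2.67 CPM in Low M3 against up to 2.27 CPM in the other cells. In Low M3 and High F6, Fn1 was at 0 in marker-high cells below the median score.

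The list of 22 matrix and matricellular genes held 19 that were measured, and 6 of these were at least 2-fold higher in every library, as 0.243% of all genes were: Fn1, Sparc, Lgals1, Col4a1 and the score genes Tnc and Ccn2. Tnc and Ccn2 are higher by construction, since the score chose the cells by them. Without them, 10 of 17 were higher in 6 of 6 libraries, where 10.5% of all genes were. None was lower in 6 of 6, where 5.77% were. The median log2 ratio of these 17 genes was 0.83, against 0.01 over all genes. The summed level of the 22 listed genes, Tnc and Ccn2 included, did not rise in every library. It was lower in marker-high cells of each Low library, at 3480, 2417 and 3362 against 3941, 2453 and 3458 CPM. It was higher in those of each High library, at 4310, 2829 and 3692 against 3282, 1950 and 1419 CPM. Thbs1, which encodes thrombospondin-1, averaged 138 to 421 CPM in the marker-high cells against 43.8 to 193 CPM and was at least 2-fold higher in 4 libraries.

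Type IV collagen chains were unequal. Col4a3, at 2.16 ± 0.51, and Col4a4, at 2.16 ± 1.03, were at least 2-fold higher in every library, as was Col4a1 at 2.78 ± 0.95. Col4a2, at 2.80 ± 1.65, was higher in 6 of 6 libraries and at least 2-fold higher in 5. It averaged 4.79, 5.34 and 1.74 CPM in the Low libraries and 23.1, 7.94 and 59.6 CPM in the High libraries, against 0.122 to 1.42 CPM, with its highest level in High F6, the library with the 21 fibroblast-gene UMIs in 1 cell, whose part was not tested for this gene. Col4a4 averaged 117, 47.0 and 76.2 CPM in the marker-high cells of the Low libraries and 102, 33.4 and 75.7 CPM in those of the High libraries, against 3.50 to 38.5 CPM. Col4a5 stood at 0.11 ± 0.71 and was higher in 2 libraries, and Col4a6 was below the level needed to be measured. Among 16 measured genes of the basement membrane and adhesion, 8 were higher in 6 of 6 libraries, against 10.5% of all genes, with a median of 0.53, and none passed 2-fold in all. The laminin chain genes Lama3 and Lamb3 stood at 0.86 ± 0.41 and 0.63 ± 0.40.

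Most actin and contractility genes were slightly higher. Leaving out Cald1, which chose the cells, 15 of 17 measured genes were higher in 6 of 6 libraries, against 10.5% of all genes, with a median log2 ratio of 0.58, and none passed 2-fold in all. Tpm1, a tropomyosin gene, averaged 2052, 937 and 1478 CPM in the marker-high cells of the Low libraries and 1930, 1026 and 1924 CPM in those of the High libraries, against 334 to 1028 CPM (1.29 ± 0.51). Myh9, the heavy chain of non-muscle myosin, stood at 0.79 ± 0.38 and Actn1, an actin cross-linker, at 0.76 ± 0.42. The list shares Acta2 with the muscle markers.

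Of 13 measured genes known as YAP and TAZ targets, with the score gene Ccn2 left out, 3 were higher in 6 of 6 libraries, against 10.5% of all genes, including Ccn1 at 0.83 ± 0.34 and the receptor kinase gene Axl at 1.13 ± 0.47, and the list median was 0.23. Of 13 measured genes of the TGF-beta pathway, 5 were higher in 6 of 6, against the same 10.5%, among them Inhba, a subunit of activin, at 1.08 ± 0.58, and Pmepa1, a feedback inhibitor, at 0.45 ± 0.26. No gene of these 2 lists passed 2-fold in every library. Among 16 immediate early and heat shock genes, 7 were higher in 6 of 6, again against 10.5% of all genes, with Fos at 1.20 ± 0.57, Fosb at 1.18 ± 0.70 and Atf3 at 1.07 ± 0.64. These genes are known to respond to tissue dissociation, and its part in the result was not tested.

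The wound list did not move as 1 block. Of 16 measured genes, 4 were higher in 6 of 6 libraries (Vim, Krt17, Hbegf and Mmp14) and 4 were lower in 6 of 6 (Krt6a, Krt6b, Krt16 and Plat), against 10.5% and 5.77% of all genes. The keratin gene Krt17 averaged 3459, 3451 and 3782 CPM in the marker-high cells of the Low libraries and 4024, 5047 and 2269 CPM in those of the High libraries, against 1233 to 3437 CPM (0.69 ± 0.24). Krt6a, the stress keratin gene usually switched on with it, stood at -0.46 ± 0.36, Krt6b at -0.86 ± 0.38 and Krt16 at -0.70 ± 0.34. Hbegf, a ligand of the EGF receptor, stood at 0.78 ± 0.45, while Egfr itself was higher in 4 libraries (0.25 ± 0.68).

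Other genes of the families of the score genes differed less or in the other direction. In the kallikrein and protease inhibitor list, Klk8 was at least 2-fold higher in all 6 libraries and Spink5, an inhibitor of kallikreins, at least 2-fold lower (-2.25 ± 0.89), and Klk6 and Klk7 were at 0 in marker-high cells. Klk10 stood at -0.53 ± 0.54 and was higher in 2 libraries. Of the whey acidic protein genes, Wfdc2 stood at 0.19 ± 0.16, higher in 6 of 6 libraries, and Slpi at -0.47 ± 0.53. Among 11 measured cytokine and alarmin genes, with the score gene Tslp left out, none passed 2-fold in all libraries, and the median was 0.33. By direction 3 were higher in 6 of 6 libraries (Cxcl16, Csf1 and Csf3) and Il18 was lower, against 10.5% and 5.77% of all genes. Il33, an alarmin of the same epithelial response, stood at -0.67 ± 0.95 and was higher in 1 library.

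The other genes of the rule for leading genes (at least 2-fold higher in 6 of 6 libraries and at least 20 CPM) were Cp, Plekhb1, Pdpn, Clu and Lrrc8c. Clu, which encodes the secreted chaperone clusterin, averaged 2008, 1081 and 941 CPM in the marker-high cells of the Low libraries and 2367, 808 and 962 CPM in those of the High libraries, against 1000, 411, 393, 760, 242 and 87.8 CPM (1.74 ± 0.87). The 2 kinds of cell differed within each library but overlapped between libraries. Cp, the gene of the copper-binding ferroxidase ceruloplasmin, stood at 2.53 ± 1.25 and Plekhb1 at 2.50 ± 1.27. Pdpn, which encodes the membrane glycoprotein podoplanin, stood at 1.75 ± 0.85, but its level in High M3 rests on 1 UMI. Lrrc8c, a subunit of volume-regulated anion channels, stood at 1.55 ± 0.46.

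**Figure D2:**
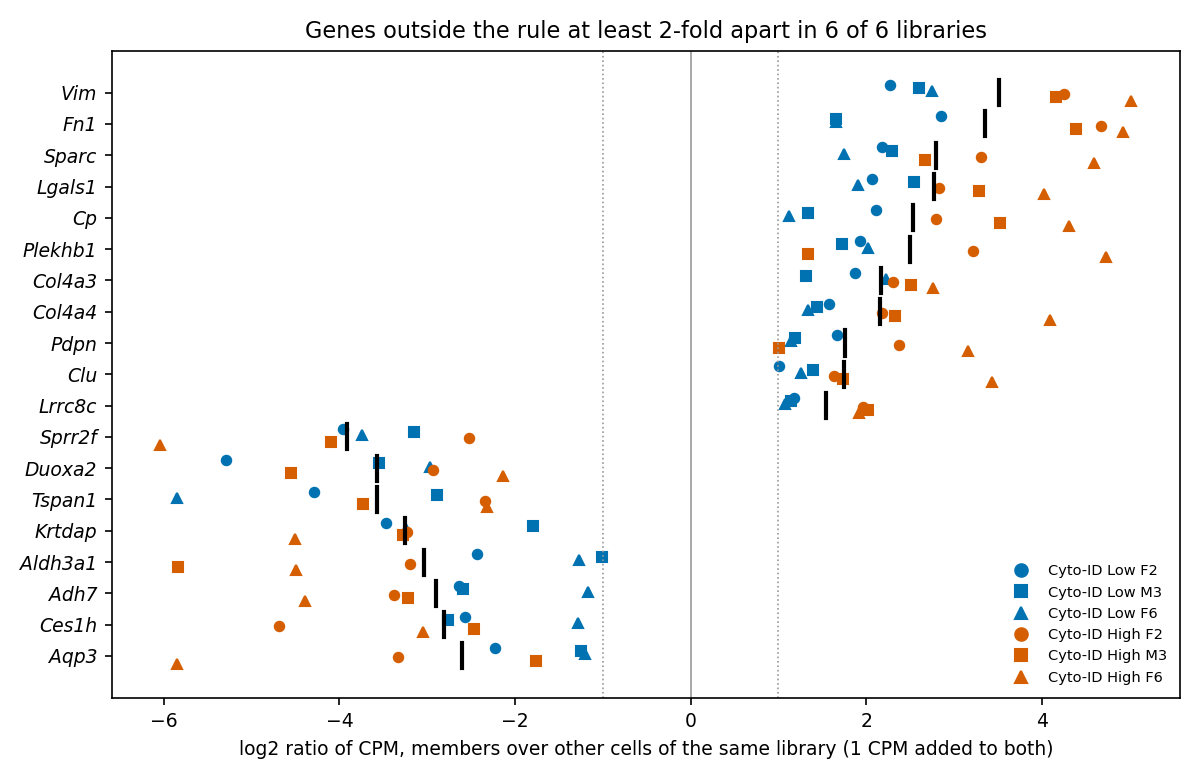
The log2 ratio of CPM, marker-high over other cells of the same library (1 CPM added to both), for the leading genes outside the rule, 1 point per library, with a black bar at the mean and dotted lines at 2-fold. Vim, at a mean of 3.51, leads the higher genes, and Sprr2f, at -3.92, the lower ones.

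On the lower side, 3 of the 11 measured suprabasal and superficial genes were at least 2-fold lower in every library, against 0.254% of all genes, and 7 of 11 were lower in 6 of 6, against 5.77% of all genes, with a list median of -0.98. Sprr2f, a gene of the cornified envelope, averaged 73.9, 34.0 and 28.3 CPM in the marker-high cells of the Low libraries and 88.0, 8.41 and 0 CPM in those of the High libraries, against 64.7 to 1162 CPM (-3.92 ± 1.19). Krtdap, a gene of keratinocyte differentiation, stood at -3.25 ± 0.86, and Psca, which encodes a surface antigen of the upper layers, at -2.13 ± 0.54. The rule kept cells low in Krt13, and Krt13 itself, the main suprabasal keratin of this tissue, stood at -1.07 ± 0.32. Among cells with no Krt13 UMI, Sprr2f stood at -3.05 and was at least 2-fold lower in 6 libraries, whereas Psca, at -1.41, was so in 3.

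The other leading lower genes were Duoxa2, a maturation factor of a dual oxidase (-3.57 ± 1.16), Tspan1, a tetraspanin (-3.57 ± 1.36), Aldh3a1, an aldehyde dehydrogenase (-3.04 ± 1.88), Adh7, an alcohol dehydrogenase (-2.90 ± 1.07), Ces1h, a carboxylesterase (-2.80 ± 1.11), and Aqp3, a water and glycerol channel (-2.60 ± 1.77). Duoxa2 averaged 0 to 9.68 CPM in marker-high cells against 3.39 to 119 CPM. Aqp3 averaged 0 to 22.9 CPM against 9.29 to 131 CPM.

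Along the score the changes were graded. Lgals1 averaged 5.5 CPM (SD 1.6, n = 6 libraries) in cells at a score of 0, 20.8 (7.4) in cells between 0 and the threshold, 58.6 (24.7) in marker-high cells below the median score and 128 (65.7) in those above it. Vim averaged 0.755, 5.40, 24.0 and 72.7 CPM over the same bins. Psca ran the other way, at 4460, 1516, 648 and 688 CPM. Of the basal keratin genes, Krt5 was nearly flat, at 3595, 3543, 3278 and 3269 CPM, while Krt14 fell, at 11631, 10894, 9061 and 7106 CPM.

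**Figure D3:**
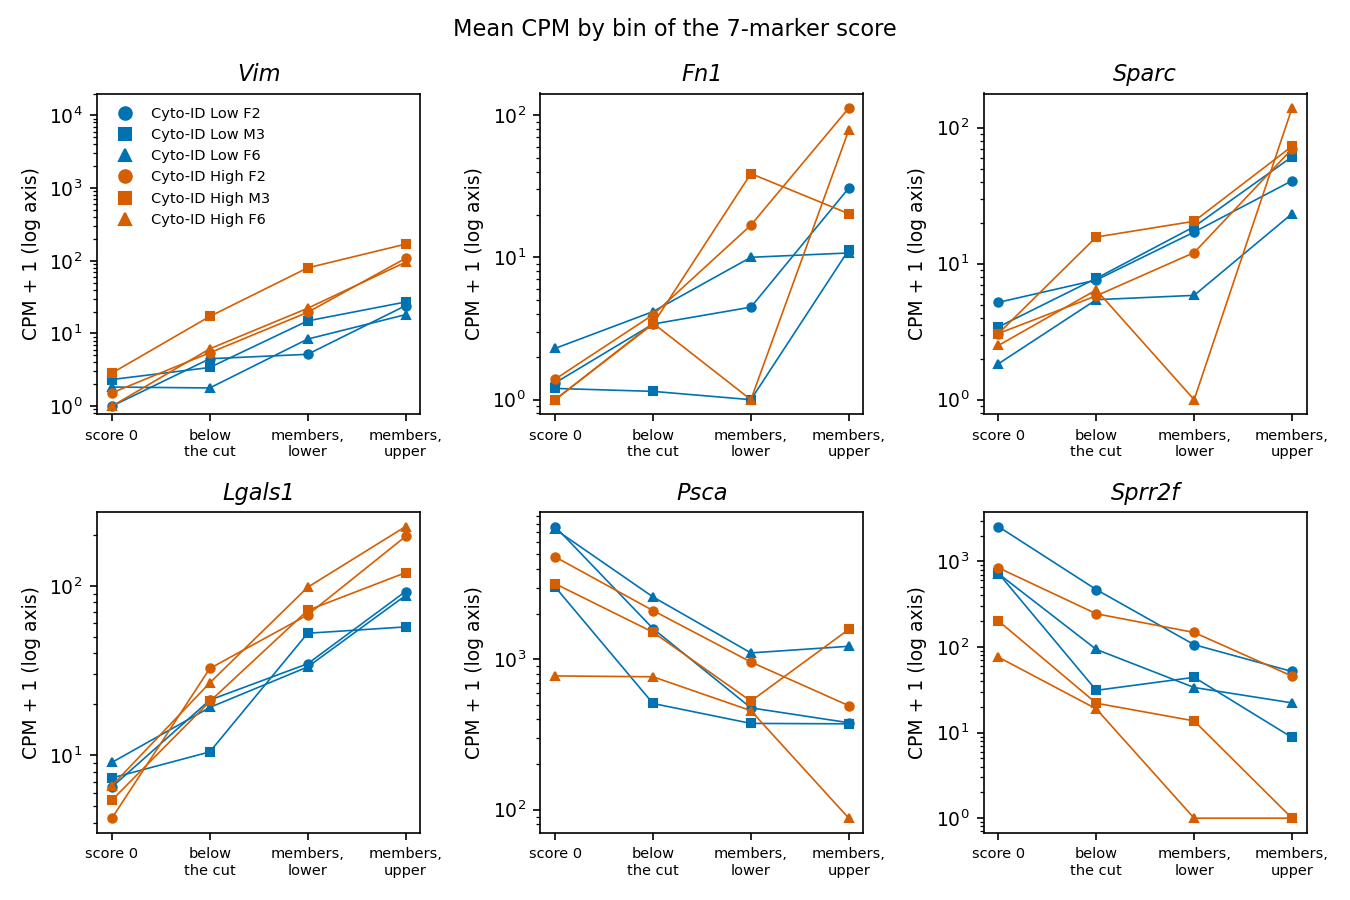
Mean CPM plus 1 (log axis) of 6 genes in 4 bins of the score (cells at 0, cells above 0 but below the threshold, marker-high cells below and above their median score), 1 line per library. Vim, Fn1, Sparc and Lgals1 lie highest in the upper bin in most libraries, and Psca and Sprr2f lie highest at a score of 0.

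The marker-high cells were also compared for 2 other gene sets of basal cells, which went in opposite directions. Tmem176a and Tmem176b, which encode paired membrane proteins, were higher in 6 of 6 libraries, at 1.07 ± 0.67 and 1.13 ± 0.66, and Btn1a1, a butyrophilin gene, was higher in 2 (-0.41 ± 0.94). Of the marker-high cells, 5.63% to 44.8% were also in the upper 15% of cells for the mean of Tmem176a, Tmem176b and Btn1a1, more than the other cells in each of the 6 libraries (0.865% to 29.6%). For the mean of Igfbp2, Adh7 and Mt3 the order was opposite in all 6 libraries, at 0.939% to 6.13% of marker-high cells against 2.37% to 33.1% of the other cells.

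The share of marker-high cells was then compared between founders. They made up 630 of 1810, 239 of 2600 and 243 of 1426 non-cycling Krt13-low cells in the Low libraries, which is 34.8%, 9.19% and 17.0%. In the High libraries they made up 538 of 2496, 86 of 1901 and 213 of 2757, which is 21.6%, 4.52% and 7.73%. The share was lower in the High library of each of the 3 pairs with the same label, but the groups overlapped.

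The means were 20.3% ± 13.1 and 11.3% ± 9.05 (SD, n = 3), a difference of -9.08 percentage points that was within the spread between the replicates (exact permutation test, two-sided, p = 0.4, where 0.1 is the smallest value possible). An exact sign-flip test over the pairs gave p = 0.25, the smallest it can give. Of all kept cells, they made up 10.4% ± 6.84 and 6.34% ± 5.39 (exact permutation test, p = 0.6, n = 3). Without Low F2 the difference shrank from -9.08 to -1.85 percentage points, and without Low M3 it was -14.7.

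Depth can set such a share, since the score reads a single UMI as a higher value in a shallow cell. After every cell was thinned to 1000 UMIs, with 115 Low and 232 High cells left out as too shallow, the whole rule was applied again to the thinned values. Fewer UMIs also change which cells count as Krt13-low and non-cycling, and the denominators went from 5836 to 5978 Low and from 7154 to 7508 High cells. The shares were 46.5%, 28.2% and 44.4% against 31.9%, 17.0% and 18.1%. Many cells tie at the new threshold and all of them count as marker-high, so these shares are higher than the unthinned ones. The thinned set held 876, 765 and 613 Low and 890, 310 and 524 High cells, and it is not the set described above. The means of 39.7% ± 10.0 and 22.3% ± 8.31 differed by -17.4 percentage points (exact permutation test, p = 0.2, n = 3), again lower in High in 3 of 3 pairs.

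**Figure D4:**
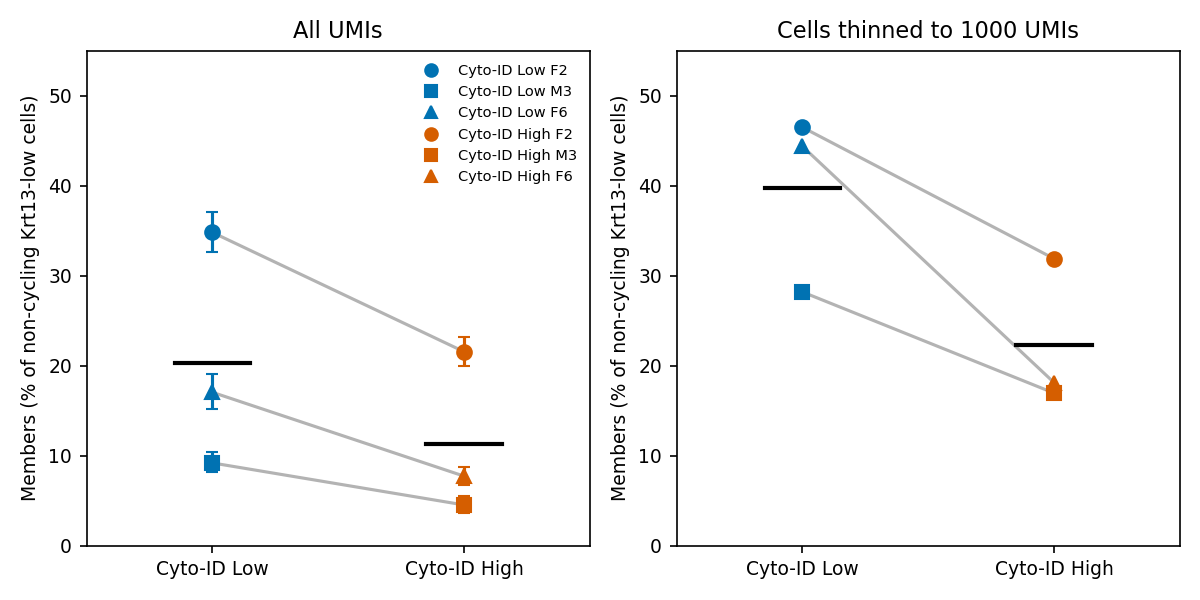
Marker-high cells as a percent of non-cycling Krt13-low cells in each library, from all UMIs (left, bars are Wilson 95% intervals, which cover counting error only) and after thinning to 1000 UMIs (right, a larger set of cells). Grey lines join libraries with the same label and black bars are group means (20.3% and 11.3% on the left); each line falls from Low to High.

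Within the marker-high cells, genes were compared between founders with limma, as High over Low, with Benjamini-Hochberg adjustment. Of 11453 genes tested, none passed an adjusted p of 0.05 in either direction (0%), and 412 (3.6%) had an unadjusted p under 0.05. Across other settings of the fit, between 0 and 4 genes passed. Groups did not overlap, with all High libraries above all Low ones, for 389 genes (3.4%), and below for 723 (6.31%). The High M3 library held 86 marker-high cells with 193299 UMIs, and without it 3 genes passed: Vim, Krtdap and Mt4.

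Vim had 1 of the 2 smallest adjusted p-values. Its levels, given above, were 14.4 ± 3.03 CPM in the Low libraries and 80.1 ± 25.3 CPM in the High libraries (SD, n = 3), and the groups did not overlap. The log2 change was 2.41 ± 0.34 (SE; limma, adjusted p = 0.128), and the UMIs behind it were 67, 37 and 7 against 401, 26 and 23. Over all settings the change ranged from 1.79, with the percentile taken within each library, to 2.64. The limma adjusted p ranged from 0.0335 to 0.949. In the other cells the change of Vim was 0.54 ± 0.43, and the difference between the 2 changes was not past the threshold (limma, adjusted p = 0.348). Without cells that had a fibroblast-gene UMI, Vim stood at 69.6, 109 and 62.4 CPM in the High libraries.

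No matrix gene passed the test between founders. Of the 6 named above as at least 2-fold higher in marker-high cells, Fn1, Sparc, Lgals1 and Col4a1 had groups that did not overlap, with High above Low, while Tnc (0.76 ± 0.44) and Ccn2 (-0.33 ± 0.35) had groups that overlapped. Fn1 was at 10.2 ± 7.99 against 48.3 ± 20.1 CPM, with a log2 change of 2.41 ± 0.58, Col4a1 at 4.13 ± 0.18 against 21.2 ± 4.83 CPM, with 2.13 ± 0.49, and Lgals1 at 57.6 ± 8.16 against 131 ± 40.6 CPM, with 1.17 ± 0.30 (limma, adjusted p = 0.95 for each). Over all settings the change ran from 1.58 to 3.84 for Fn1, 0.898 to 2.81 for Col4a1 and 0.702 to 1.56 for Lgals1. The pooled threshold took a smaller mean share of High than of Low cells, and levels of these genes rose along the score. With the percentile taken within each library, the change was 1.72 for Fn1, 1.62 for Col4a1 and 0.702 for Lgals1. The marker-high cells held 559899 UMIs in Low F6, 193299 in High M3 and 365690 in High F6, so low levels there rest on few UMIs. The small SD of Col4a1 in the Low libraries is a spread of library means and does not show how few UMIs lie behind them. Of the 19 matrix genes tested, 7 had groups that did not overlap, all higher in High, where 3.4% of all genes did so. The median change of the list was 0.55, against -0.12 over all genes. Other lists held such genes too, higher in High. They were 6 of 16 immediate early and heat shock genes, 4 of 12 suprabasal and superficial genes and 4 of 17 wound genes. The summed muscle list was also higher in High libraries, at 48.9 to 78.9 against 20.8 to 39.5 CPM, and its part in these values was not tested. The summed matrix list overlapped between founders, at 2829 to 4310 CPM in High against 2417 to 3480 CPM in Low libraries. The single cell with 21 fibroblast-gene UMIs lies in High F6: without cells with such a UMI, Fn1 in that library went from 42.8 to 22.9 CPM and Col4a1 from 26.8 to 16.9 CPM, both still above all Low libraries.

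Krtdap and Mt4, genes of differentiating keratinocytes and of metal binding, were low in marker-high cells but higher in those of High libraries. Mt4 was at 1.45, 0 and 1.25 CPM in the Low libraries and at 74.7, 24.8 and 28.2 CPM in the High libraries, with a log2 change of 4.48 ± 0.64 (limma, adjusted p = 0.128). At such low levels the size of the change depends on the CPM added: it was 6.02 for Mt4 and 5.29 for Krtdap with 0.1 CPM added, and 2.17 and 2.21 with 10 CPM added, while Mt4 stood at 2.05 in cells with at least 1000 detected genes. Over all settings the adjusted p of Mt4 ranged from 0.00447 to 0.949. Krtdap was at 4.85, 4.06 and 0 CPM against 60.8, 38.0 and 47.3 CPM, with a change of 4.03 ± 0.67 (limma, adjusted p = 0.333). Without Low F6 the change of Krtdap was 3.23, and in cells with at least 1000 detected genes it was 3.25. A Krtdap UMI was found in 5.16% to 30.1% of the marker-high cells of the High libraries and in 26.7% to 50.7% of their other cells, whose mean level was 376 to 1092 CPM, and for Mt4 272 to 568 CPM. Free RNA from other cells can give such UMIs, and its part in the marker-high values was not tested. In the other cells both changes passed the test: 6.73 ± 0.70 for Mt4 and 4.98 ± 0.62 for Krtdap (limma, adjusted p = 0.00607 and 0.0136). The difference of the changes between the 2 kinds of cell did not pass for either gene (limma, adjusted p = 0.433 and 0.523).

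**Figure D5:**
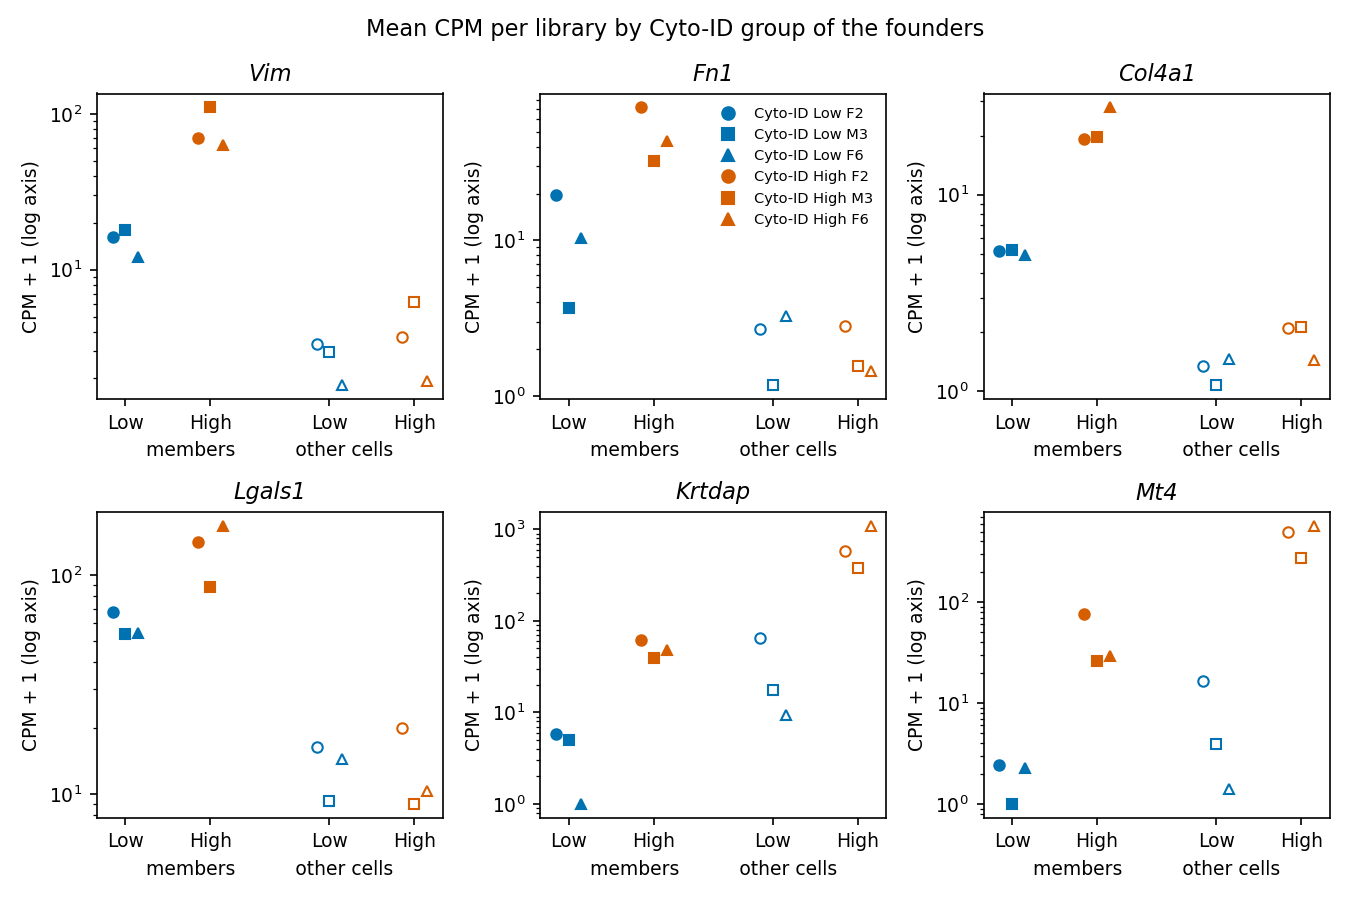
Mean CPM plus 1 (log axis) of 6 genes in each library by the Cyto-ID group of the founders, in marker-high cells (filled) and other cells (open). Vim, Fn1, Col4a1 and Lgals1 are higher in the High libraries within marker-high cells, where the groups do not overlap, and Krtdap and Mt4 are higher in both kinds of cell; none passed the test in marker-high cells.

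The lowest p-values for a decrease, among genes of at least 10 CPM, belonged to Eva1c, Cd3eap and Rarg, a retinoic acid receptor gene. Eva1c was at 52.2, 86.9 and 77.0 CPM against 32.8, 35.0 and 18.7 CPM, with a log2 change of -1.27 ± 0.34, Cd3eap at -1.81 ± 0.53 and Rarg at -1.19 ± 0.34 (limma, adjusted p = 0.95 for each). Their groups did not overlap. Across the settings tried, the change ran from -2.40 to -0.79 for Eva1c, -2.85 to -0.618 for Cd3eap and -2.18 to -0.322 for Rarg. Of the 7 genes of the score, Cald1 had groups that did not overlap, at 361 ± 90.0 against 533 ± 40.8 CPM, and the rule chose the cells by this gene.

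In the other cells the same comparison called 28 of 11644 genes higher (0.24%) and none lower (0%), with 715 (6.14%) at an unadjusted p under 0.05. Groups did not overlap for 374 genes that were higher (3.21%) and 1184 that were lower (10.2%). The 28 became 7 without Low F6 or High F6, 11 without Low M3, 17 without High F2 and 3 with no filter on low values. Igfbp2, which encodes a binding protein of insulin-like growth factors, was among them, at 17.7, 14.0 and 9.04 CPM against 102, 92.6 and 85.1 CPM (log2 change 2.90 ± 0.23, limma, adjusted p = 0.00113). In marker-high cells Igfbp2 was at 7.63, 12.7 and 6.56 CPM against 21.6, 0 and 5.96 CPM, and its groups overlapped (-0.80 ± 0.97). The difference of -3.69 ± 0.89 between the 2 changes did not pass (limma, adjusted p = 0.294). Over 11196 genes none passed this test of the difference (0%), although 1093 (9.76%) had an unadjusted p under 0.05; 4 passed without High M3 and 27 with 10 CPM added in place of 1. The smallest adjusted p, 0.0569, was shared by Atf3, at 0.98 ± 0.13, Ptgr1, at -1.61 ± 0.21, and Gstp1, at -1.56 ± 0.21.

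Autophagy genes did not set the marker-high cells apart. Of 24 measured, none was at least 2-fold higher or lower in every library, 3 were higher in 6 of 6 and 2 lower, against 10.5% and 5.77% of all genes, and the median log2 ratio was 0.00. Map1lc3b, which encodes a protein of the autophagosome membrane, averaged 264 to 450 CPM in marker-high cells against 275 to 573 CPM and was lower in 6 of 6 libraries (-0.26 ± 0.14), and Gabarap, of the same family, was higher in 5 (0.17 ± 0.22). Between founders none of the 24 passed the test within marker-high cells. Of the 24, 3 (Ulk1, Atg9a and Sqstm1) had groups that did not overlap, with High above Low, against 3.4% of all genes. Sqstm1, an autophagy receptor gene, was at 94.2, 86.0 and 91.1 CPM against 139, 112 and 142 CPM, with a log2 change of 0.56 ± 0.24.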

How the data were processed

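Single-cell RNA was measured in 6 organoid libraries. The deposited tables hold 1 value per gene and barcode for 32285 genes, on a natural log scale: ln(1 + UMIs per 10000 UMIs of that cell). No label names the unit, and it was inferred from the numbers: 100% of them were whole multiples of 1 UMI within a tolerance of 1e-06. Cell Ranger 6.0.0, Seurat 4 and the builds mm10 and GRCm38 are named in the submitters' processing notes, with no roles. The counting rule, annotation and cell filter are not given in the sources used here, so levels of near-identical family members (metallothioneins, carboxylesterases, glutathione S-transferases) and of overlapping genes are uncertain. The lowest total of a deposited barcode was 500 UMIs and the highest mitochondrial share 9.998%.

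UMIs were recovered from the deposited natural log values and CPM averaged over the cells of a library. Groups were compared with limma 3.58.1 (R 4.3.3) on log2(CPM + 1) after TMM factors (trimmed mean of M values, 30% and 5% trimmed), with a mean-variance trend, for genes that reached 1 CPM in 3 or more libraries, with a threshold of 0.05 on the adjusted p. This scale understates changes of low genes. The deposited unit is a log, and a count model was not used, although UMIs could be recovered. The fits were tested on simulated data with known changes in genes averaging at least 20 CPM, with the same spread between libraries set for all genes. How the fits treat changes in lower genes or an uneven spread was not tested. Shares per library carry Wilson 95% intervals, and libraries were compared with two-sided exact permutation tests. Marker-high against other cells was described only, over genes averaging 5 CPM or more.

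The cells, the gene lists and the tests were chosen with earlier results of these data known. Genes were named by a rule: the genes that chose the cells; list members past the criteria, or otherwise up to 3 with the highest level; leading genes of at least 20 CPM (up to 15 higher and 8 lower); up to 10 genes a direction between founders, or 3 with the smallest p where none passed. Beyond it, Krt17, Krt6a, Krt6b, Krt16, Krt15, Trp63, Thbs1, Col4a2, Col4a5, Col4a6, Ccn1, Axl, Lama3, Lamb3, Tpm1, Myh9, Actn1, Fos, Fosb, Mmp14, Plat, Il33, Cxcl16, Csf1, Csf3, Il18, Tagln, Klk6, Klk7, Klk10, Slpi, Wfdc2, Ulk1, Atg9a, Sqstm1, Ptgr1, Gstp1, Cdkn1a and Cdkn2a were named after their values were seen, as were the between-founder values of Fn1, Col4a1 and Lgals1.

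Promoter windows are from RefSeq on GRCm38.p6.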

Additional observations from a re-analysis of the deposited data

How the results depend on the processing

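The lower share of marker-high cells in Cyto-ID High libraries kept its direction under every setting tried (other percentiles, a stricter Krt13 or gene filter, cycling cells kept, thinning, each score gene left out). Thinning, where many cells tie at the threshold, took in a larger set of cells. Leaving out 1 library at a time gave differences of -14.7 to -1.85 percentage points of non-cycling Krt13-low cells and -7.10 to -0.343 of all cells. No setting passed a threshold, and p-values of this design cannot.

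Between founders within marker-high cells, 0 genes passed as reported, 4 with 10 CPM added in place of 1 (Cdkn2a, Krtdap, Mt4 and Vim), 1 at the 80th percentile (Krtdap), 2 with the percentile taken within each library (Krtdap and Mt4) and 0 to 3 when 1 library was left out (3 without Cyto-ID High M3); adding 10 CPM also moved the log2 change of Mt4 from 4.48 to 2.17 and of Krtdap from 4.03 to 2.21. In the other cells the 28 calls became 16 with 0.1 CPM added, 3 with no filter on low values, 10 with at least 1000 detected genes, 15 with a filter of 10 CPM (chosen after seeing the data) and 7 to 27 without 1 library (7 without Cyto-ID Low F6 or Cyto-ID High F6, 11 without Cyto-ID Low M3, 17 without Cyto-ID High F2). For the difference of changes the 0 calls became 27 with 10 CPM added (8 higher, 19 lower), 1 without TMM factors and 3 at the 80th percentile. They became 16 with the percentile within each library (11 higher, 5 lower), 1 without Wfdc18 in the score and 0 to 4 without 1 library (4 without Cyto-ID High M3). Atf3 was among the calls of each of these settings except those that left out 1 library. Gstp1 was among those with 10 CPM added, at both changed percentiles and without Cyto-ID High M3. Leaving TMM factors out moved the median change of all genes from 0.004 to -0.149 in the other cells and from -0.14 to -0.015 for the difference; at least 1000 detected genes moved it from -0.122 to -0.431 in the marker-high cells.

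A block on the replicate label left the share differences at -9.08 and -4.04 percentage points (exact sign-flip test over pairs, p = 0.25 for each) and called 4 genes in marker-high cells (Cdkn2a, Krt16, Mt4 and Vim), 85 in the other cells (79 higher and 6 lower, with all 28 among them) and 9 for the difference. Over 9021 genes, deviations from the group means correlated at 0.277 for the F2 pair, 0.275 (M3) and 0.0547 (F6), the last below Cyto-ID Low F2 with Cyto-ID High F6 at 0.17, so the block rests on a shared label only.

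Of marker-high against other cells, 22 higher and 23 lower genes became 9 and 4 with 10 CPM added, 18 and 14 with the percentile within each library, 21 and 14 without Wfdc18 in the score, 13 and 13 in cells with no Krt13 UMI, and 21 and 23 without cells with a fibroblast-gene UMI. Leaving out 1 library, which asks for agreement in 5 rather than 6, gave 22 to 33 and 23 to 40 (40 without Cyto-ID Low F6). With 10 CPM added, 2 of the 11 leading higher and 1 of the 8 leading lower genes still met the criterion, and the mean log2 ratios shrank, for Vim from 3.51 to 1.92, Fn1 from 3.36 to 1.56, Sparc from 2.80 to 1.65, Duoxa2 from -3.57 to -1.80, Tspan1 from -3.57 to -2.01, Adh7 from -2.90 to -1.41 and Ces1h from -2.80 to -1.34. At the 80th percentile 5 of the 11 and 6 of the 8 met the criterion, and after thinning to 1000 UMIs 6 and 4 did. With the percentile within each library 7 and 6 met it, and without Wfdc18 in the score 7 and 5. No leading gene changed sign under these settings.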

Other observations

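Cdkn2a, which encodes cell cycle inhibitors and was singled out after its values were seen, was at 9.17, 9.22 and 0.92 CPM in the marker-high cells of Cyto-ID Low (F2, M3 and F6) and at 69.8, 72.9 and 45.2 CPM in those of Cyto-ID High. The groups did not overlap, with a log2 change of 3.46 ± 0.61 (SE; limma, adjusted p = 0.333), and the other cells were at 2.92 to 3.66 against 7.91 to 18.7 CPM (1.60 ± 0.30, limma, adjusted p = 0.105). The difference of the changes did not pass (limma, adjusted p = 0.484). The UMIs behind the marker-high values were 60, 25 and 1 against 521, 19 and 19. The cell cycle inhibitor gene Cdkn1a also had groups that did not overlap, at 122, 114 and 125 CPM against 267, 264 and 180 CPM in marker-high cells (0.99 ± 0.23, limma, adjusted p = 0.95).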
